A study of Homo sapiens with 6 samples.

Results

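The Sprouty and SPRED genes encode feedback inhibitors of receptor tyrosine kinase signaling to ERK. The family, matched by gene symbol, comprised SPRY1, SPRY2, SPRY3 and SPRY4 on the Sprouty side and SPRED1, SPRED2 and SPRED3 on the SPRED side. All 7 were listed among the 19823 genes of the deposited table, and 7 of 7 passed the filter on low values that left 18130 genes for testing. The genes were taken by name, with earlier results of these data known.

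RNA-seq had been done on human iNeurons, which are glutamatergic neurons made from the WTc11 induced pluripotent stem cell line by doxycycline-inducible expression of the neurogenic factor NGN2. Every sample carried the same knockdown of RBM12, an RNA-binding protein, by CRISPR interference, in which the nuclease-dead dCas9-KRAB repressor is brought to a gene's start by a guide RNA. The groups were 3 untreated samples and 3 samples stimulated with isoproterenol, an agonist of the β-adrenergic receptors, which raise cAMP. The samples used here held no neurons with a control guide, so each comparison below describes isoproterenol within knockdown neurons. The cells are 1 clonal line whose β2-adrenergic receptor was at its native level, and the culture medium of the study contained the neurotrophins BDNF and NT-3. The labels give neither the dose nor the duration of treatment, and the labels do not say that replicates came from separate cultures. The p-values therefore rest only on the spread between these samples, moderated with variances pooled over all tested genes, and that spread may be technical. In bulk RNA, fewer cells that express a gene and less of its RNA per cell cannot be told apart.

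Growth factors and neurotrophins bind receptor tyrosine kinases, whose adaptors load RAS with GTP, and RAS then starts the kinase cascade that ends in ERK. Sprouty proteins are often made in response to ERK activity, become phosphorylated on a conserved tyrosine, and dampen the cascade near its top. SPRED proteins share the Sprouty cysteine-rich domain at their C-terminal end but carry an EVH1 domain at the other, by which SPRED1 and SPRED2 bring the RAS GTPase-activating protein neurofibromin to the membrane.

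Because isoproterenol raises cAMP, and CREB binds the cAMP response element (CRE), the start windows of the 7 genes were searched for the CRE half-site TGACG on either strand. RefSeq (GRCh38.p14) gave 13 windows, each running from 250 bases before to 50 after a start: 2 for SPRY1, 3 for SPRY2, 2 for SPRY3, 1 for SPRY4, 1 for SPRED1, 2 for SPRED2 and 2 for SPRED3. The half-site stood in 4 of the 13 windows (30.8%), and in 8569 of 34961 start windows of all genes (24.5%). The full CRE palindrome, which contains the half-site on both strands, was in 0 of the 13 and in 1.85% of all windows. The 5 half-sites are shown with their flanks because 4 of them lie at SPRY2, SPRY3 and SPRY4, the genes described in most detail below. Each is read 5′ to 3′ on the gene's own strand, capitals mark the half-site (CGTCA where it lies on the opposite strand), and a match describes letters only.
SPRY2, minus strand, chr13:80341300-80341328: ctcggatccacaTGACGccatttactgct
SPRY3, plus strand, chrX:155612469-155612497: atgtacactgggCGTCAgtcccaacgcga
SPRY3, plus strand, chrX:155612582-155612610: tggcacagatcgTGACGacaaccctgcgg
SPRY4, minus strand, chr5:142324299-142324327: tcttcggagccgTGACGgactgaattccc
SPRED2, minus strand, chr2:65432553-65432581: ccgctgggaagaCGTCAtcgcttccgccc

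The half-sites of SPRY2 and SPRY4 lay upstream of a RefSeq start, at positions -190 and -68. The only RefSeq window of SPRY4 sits inside the GENCODE span of the gene given below, so the outer start of that span was not searched. SPRY3 held one on each side of its start, at -105 and at +9, and that of SPRED2 lay in the transcribed part, at +31. Windows of SPRY1, SPRED1 and SPRED3 held none of these letters.

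Between 18116816 and 21488793 reads per sample were assigned to genes, and the deposited values, divided by size factors of 0.867 to 1.03, are called normalized counts here. A Sprouty or SPRED gene had between 368 reads (SPRY3) and 2452 reads (SPRED3) in a sample, so counting alone gave a coefficient of variation of 2.10% to 4.90%. The glutamatergic markers were present, with SLC17A6, a vesicular glutamate transporter, at 13442 normalized counts in untreated and 13606 in isoproterenol neurons. TUBB3, a neuronal tubulin, was at 69.2 to 94.4, but it shares 1584 exonic bases with a gene on its own strand. How that overlap affected its count was not tested. Of the 10 listed glutamatergic markers, 9 passed the filter. Their summed level was 91463 to 93866 in untreated samples and 91927 to 96317 with isoproterenol, and these ranges overlapped. Summed markers of GABAergic neurons were 55.3 to 60.0 in untreated and 66.9 to 79.0 in isoproterenol samples, those of the oligodendrocyte lineage 1047 to 1090 and 1101 to 1171, and those of astrocytes 159.8 to 175.1 and 134.4 to 156.8. Within the oligodendrocyte and GABAergic lists members differed in direction, whereas the astrocyte markers AQP4 and S100B both had negative log2 fold changes (-0.27 and -0.015). MBP, which made up most of the oligodendrocyte sum, was at 937.0 ± 21.6 and 1024 ± 56.7, whereas OLIG1 was at 107.6 ± 12.3 and 90.1 ± 10.3, and among GABAergic markers GAD1 was higher and SLC32A1 lower in all 3 replicate numbers. These 3 sums did not overlap between the groups, and their part in the results below was not tested. GFAP, which defines astrocytes, was not listed in the table used here. Neural progenitor, pluripotent, mesenchymal and proliferation markers overlapped, and 0 genes on any marker list passed the test with or without the replicate block. RBM12 itself stood at 244.3, 278.7 and 266.9 normalized counts in the untreated samples and at 194.6, 237.6 and 232.8 with isoproterenol (limma adjusted p = 0.607), and without a control-guide sample these values do not check the knockdown.

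By mean normalized count, not corrected for length, all 7 genes stood above the median tested gene. Set per kilobase of exon, their levels spanned about an order of magnitude. SPRED3, the SPRED gene known mainly from brain, was highest, with a mean over the 6 samples of 398.9 normalized counts per kilobase and a range of 378.6 to 412.5. SPRY4 followed at 330.2 (range, 279.0 to 363.8) and SPRED2 at 270.0 (257.2 to 283.4). SPRY2, the best studied Sprouty, was at 227.7 (201.0 to 251.5), SPRED1 at 163.8 (153.4 to 173.5) and SPRY1 at 145.6 (128.4 to 172.1). SPRY3, a gene of the pseudoautosomal region at the long-arm ends of X and Y, was lowest at 40.9 (33.7 to 45.8), so that the step from SPRY1 down to SPRY3 was 3.56-fold while the other steps were 1.13- to 1.39-fold.

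In every one of the 6 samples each gene stood above the next in this order. Over samples, SPRY4 overlapped SPRED2, and SPRED1 overlapped SPRY1, whereas the other neighbors did not. With the longest transcript in place of all exonic bases, SPRY1 (221.3 normalized counts per kilobase) stood above SPRED1 (174.6) and the other ranks were kept. Among all tested genes the mean normalized count of SPRED3 lay at percentile 88.7, SPRY4 at 87.7, SPRED2 at 81.8, SPRED1 at 79.1, SPRY2 at 68.2, SPRY1 at 63.4 and SPRY3 at 57.7. RNA of all SPRED and all Sprouty genes was thus present in these cultures, though bulk RNA does not show whether the same cells held it. The 4 Sprouty genes together contributed 47.3% ± 2.32 (SD, n = 3) of the family's per-kilobase level in untreated samples and 47.0% ± 1.43 (SD, n = 3) with isoproterenol.

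**Figure D1:**
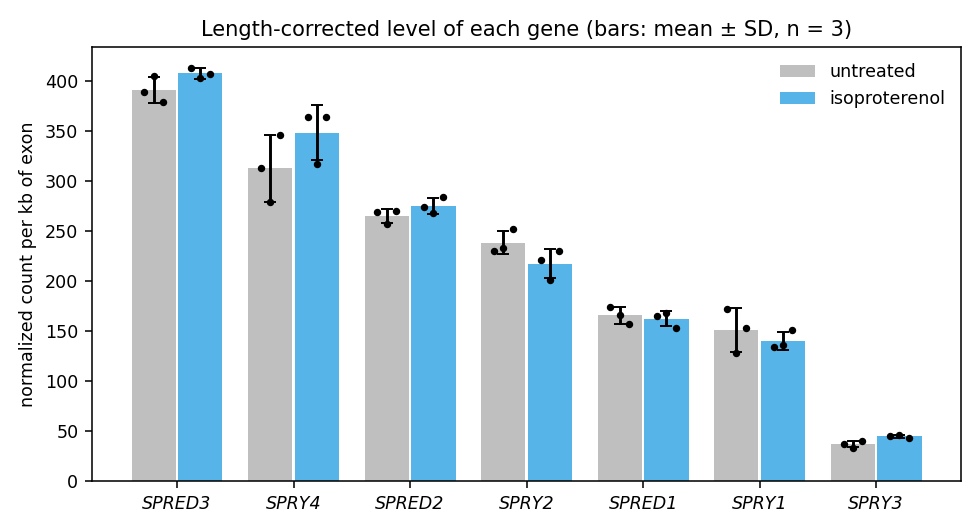
Level of each Sprouty and SPRED gene in normalized counts per kilobase of exon, for untreated and isoproterenol samples; bars are means, error bars SD (n = 3) and points single samples. SPRED3 was highest (390.6 in untreated and 407.1 in isoproterenol samples) and SPRY3 lowest (36.8 and 44.9).

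The comparison of isoproterenol with untreated neurons asks whether stimulation of the β-adrenergic receptors moved the RNA of these inhibitors. Changes were small. Of the 7 genes, 4 had a positive and 3 a negative log2 fold change, and their median was 0.05, beside 0.0015 over all 18130 genes. The median size of the change regardless of sign was 0.0998 for the 7 genes and 0.0872 for all genes. Without a block, the 95% interval of the log2 fold change excluded 0 for SPRY3 alone, which was higher. With the block described next it also excluded 0 for SPRY4, which was higher, and for SPRY2, whose log2 fold change of -0.13 did not pass the adjusted test, while those of SPRY1 and the 3 SPRED genes contained 0 in both fits.

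In the two-sided limma test across all genes with Benjamini-Hochberg adjustment at a threshold of 0.05, 0 of the 7 passed, where 3 genes in all passed (0.0165%). At an unadjusted p under 0.05, 1 of the 7 passed, beside 7.68% of all genes, and without a block edgeR and DESeq2 also called 0 of the 7 (0.0552% and 0.116% of all genes). Same-numbered samples of the untreated and isoproterenol groups deviated together, with correlations of 0.269, 0.493 and 0.388, so that the replicate number could be fitted as a block. With that block SPRY3 and SPRY4 passed in the direction of an increase (2 of 7), where 2.82% of all genes passed as higher and 4.88% in either direction, and edgeR with the block called the same pair (2.75% of all genes as higher). In 2 of the 7, SPRY2 and SPRY3, the groups did not overlap, as in 12.9% of all genes. The plots of the samples and of the fold changes show both views of the same counts.

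**Figure D2:**
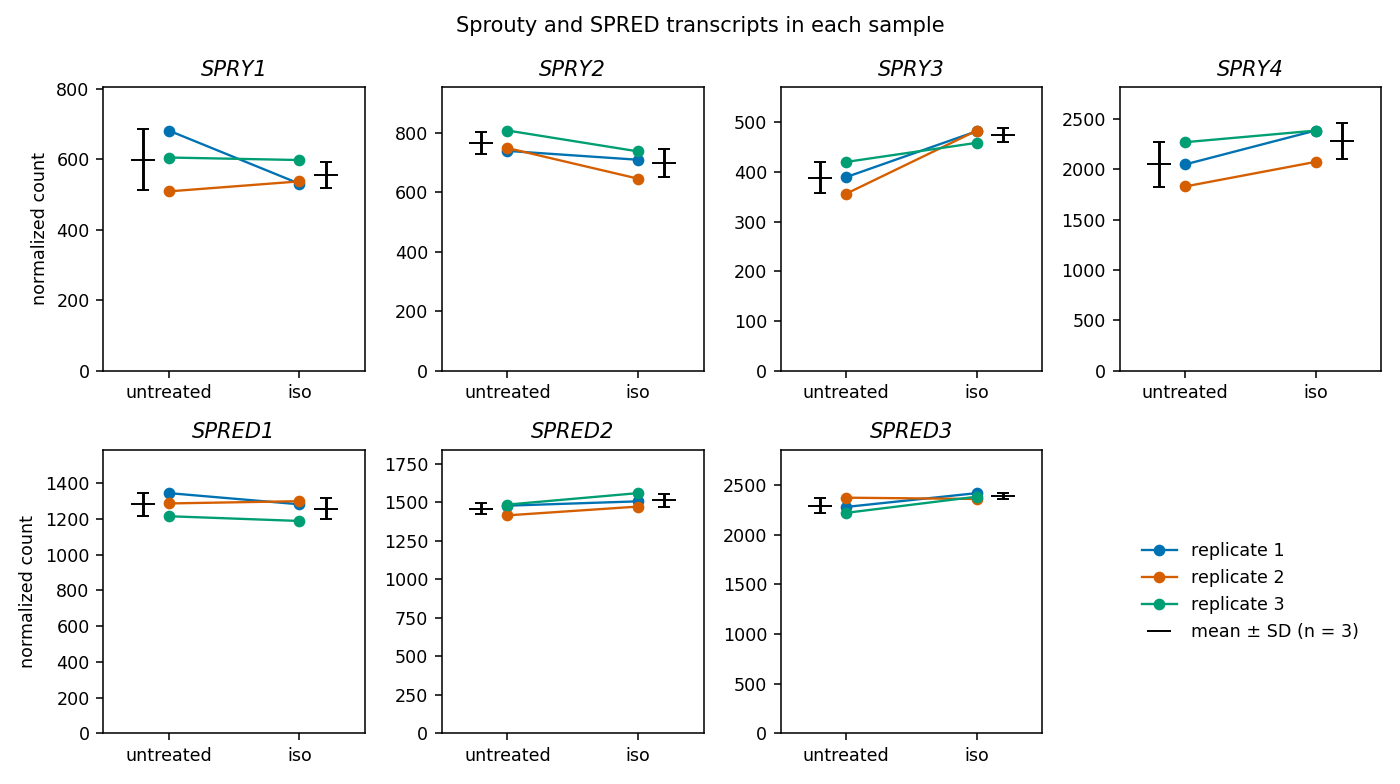
Normalized counts of each gene in the 3 untreated and 3 isoproterenol samples, with lines joining samples that share a replicate number. SPRY3 and SPRY4 were higher with isoproterenol along each of the 3 lines and SPRY2 was lower along each, while the lines of SPRY1 differed in direction (-0.36, 0.078 and -0.017 on the log2 scale).

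**Figure D3:**
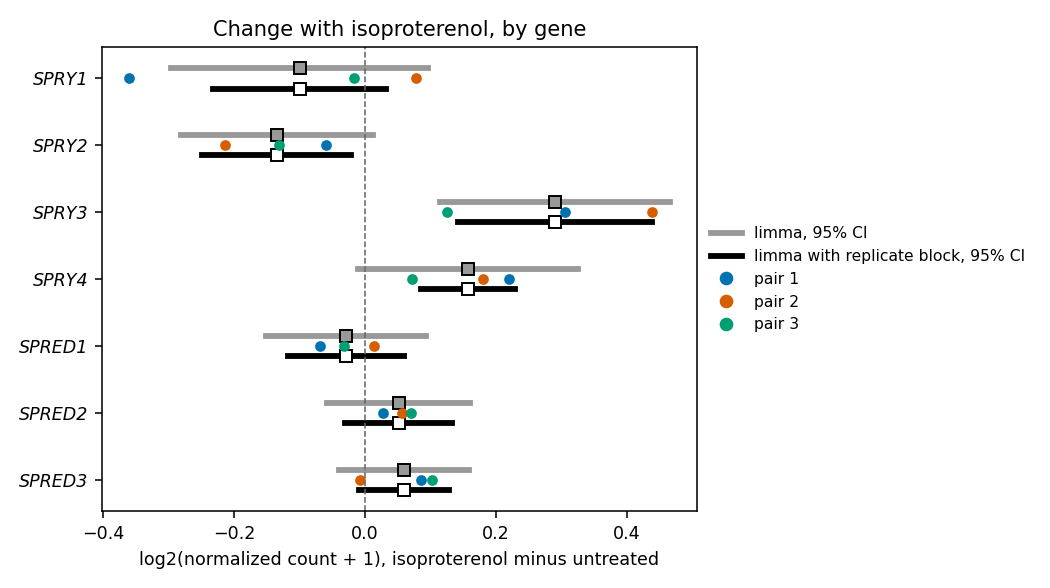
Log2 fold change of each gene, isoproterenol over untreated, with its 95% confidence interval from limma without and with the replicate block. For SPRY4 the interval ran from -0.010 to 0.33 without the block and from 0.086 to 0.23 with it, whereas all intervals of SPRY1, SPRED1, SPRED2 and SPRED3 contained 0.

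SPRY3 (ENSG00000168939, GRCh38 chrX:155612572-155782459, plus strand) is the least studied Sprouty and has been tied to inhibition of axon branching downstream of BDNF in other systems. It stood at 389.5, 356.1 and 420.0 normalized counts in the untreated samples and at 481.9, 483.2 and 458.5 with isoproterenol. The groups did not overlap: the lowest isoproterenol sample was above the highest untreated one, and in 6.73% of all genes the isoproterenol samples were likewise all higher. The mean went from 388.5 ± 32.0 to 474.6 ± 13.9 (SD, n = 3 each), an increase of 22.1%, with a log2 fold change of 0.29 (SE 0.084; 95% interval, 0.12 to 0.47) and a limma adjusted p of 0.347. The isoproterenol samples had a coefficient of variation of 2.93%, below the 4.90% from counting alone, so their SD may understate the uncertainty. With the replicate block the limma adjusted p was 0.00728 and that of edgeR was 0.00772.

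SPRY3 was higher in each replicate number, by 0.31, 0.44 and 0.13 on the log2 scale. The increase kept its direction and most of its size when any 1 sample was left out (0.23 to 0.35). Its call with the block did not hold when a replicate number was dropped, except for the third: the limma adjusted p was 0.0543 without replicate 1, 0.178 without replicate 2 and 0.00371 without replicate 3, with log2 fold changes of 0.28, 0.22 and 0.37. SPRY3 shares 33 exonic bases with TMLHE on the opposite strand, a gene at 138.5 ± 7.9 normalized counts in untreated and 124.3 ± 9.1 in isoproterenol neurons (SD, n = 3 each), and how reads of its X and Y copies were counted is not given in the sources used here.

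SPRY4 (ENSG00000187678, chr5:142310427-142326455, minus strand) was the most abundant Sprouty gene and encodes an inhibitor of growth factor signaling to ERK. Its untreated samples stood at 2048, 1829 and 2269 normalized counts and its isoproterenol samples at 2385, 2074 and 2384. The groups overlapped, because replicate 2 was the lowest sample of both groups, yet each isoproterenol sample was above the untreated sample of its own number, as held in 18.5% of all genes. The mean was 2048 ± 219.9 in untreated and 2281 ± 179.4 in isoproterenol neurons (SD, n = 3 each), 11.3% higher, with a log2 fold change of 0.16 (SE 0.077) and a limma adjusted p of 0.661. With the block the standard error was 0.036, and the adjusted p was 0.00193 in limma and 0.0016 in edgeR.

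Per replicate number the increase of SPRY4 was 0.22, 0.18 and 0.071 on the log2 scale. Without untreated replicate 2 the unblocked log2 fold change was 0.079 in place of 0.16, and without isoproterenol replicate 2 it was 0.22. Leaving out both samples of replicate 2 in the limma fit with the block gave 0.15. With the block, the limma adjusted p was 0.103 without replicate 1, 0.0301 without replicate 2 and 0.00178 without replicate 3. The neighboring antisense transcript SPRY4-AS1 was at 13.9 ± 0.53 normalized counts in untreated and 18.3 ± 5.9 in isoproterenol neurons (SD, n = 3 each; limma adjusted p = 0.869).

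SPRY2 (ENSG00000136158, chr13:80335976-80341126, minus strand) encodes the Sprouty that binds the ubiquitin ligase CBL and the adaptor GRB2. It had 739.3, 748.9 and 807.9 normalized counts in untreated and 709.5, 645.8 and 737.5 in isoproterenol samples. Every isoproterenol sample lay below every untreated one, a pattern that 6.19% of all genes shared in this direction. The mean was 765.4 ± 37.1 and 697.6 ± 47.0 (SD, n = 3 each), a log2 fold change of -0.13 (SE 0.070; 95% interval, -0.28 to 0.012). Without isoproterenol replicate 2 it was -0.080. This did not pass, with limma adjusted p-values of 0.676 without and 0.189 with the block, and it was lower in each replicate number (-0.059, -0.21 and -0.13), as 17.6% of all genes were.

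SPRY1 (ENSG00000164056, chr4:123396795-123403760, plus strand) encodes an inhibitor of FGF and GDNF signaling. Its untreated samples were the most scattered of the family, at 681.9, 509.0 and 605.2 normalized counts, a coefficient of variation of 14.5%, and its isoproterenol samples were at 530.8, 537.4 and 598.0. The groups overlapped. The means of 598.7 ± 86.6 and 555.4 ± 37.0 (SD, n = 3 each) gave a log2 fold change of -0.10 (95% interval, -0.30 to 0.097) and a limma adjusted p of 0.841. That difference rested on untreated replicate 1, without which the log2 fold change was -0.00095.

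SPRED1 (ENSG00000166068, chr15:38252836-38357249, plus strand) is the gene whose loss-of-function variants cause Legius syndrome, a disorder of RAS signaling. The untreated samples were at 1345, 1287 and 1215 normalized counts and the isoproterenol samples at 1282, 1300 and 1189. These values interleave. The means were 1282 ± 64.8 and 1257 ± 59.6 (SD, n = 3 each), and the log2 fold change of -0.029 (95% interval, -0.15 to 0.094) had a limma adjusted p of 0.939. Leaving out untreated replicate 1 or isoproterenol replicate 3 turned its sign (0.0061 and 0.011).

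SPRED2 (ENSG00000198369, chr2:65310851-65432637, minus strand), which like SPRED1 binds neurofibromin, was the steadiest of the 7 in untreated samples, with a coefficient of variation of 2.64%. It stood at 1479, 1416 and 1485 normalized counts in untreated and 1507, 1473 and 1560 in isoproterenol samples. Each isoproterenol sample was above the untreated sample of its number, but the groups overlapped. The log2 fold change was 0.052 (95% interval, -0.058 to 0.16), with a limma adjusted p of 0.859 without and 0.604 with the block.

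SPRED3 (ENSG00000188766, chr19:38388421-38399587, plus strand), which lacks a working c-KIT-binding domain in contrast to the other SPRED proteins, had 2279, 2373 and 2220 normalized counts in untreated and 2419, 2360 and 2383 in isoproterenol samples. Only isoproterenol replicate 2 fell within the untreated range. The log2 fold change was 0.060 (95% interval, -0.039 to 0.16), with a limma adjusted p of 0.803 without and 0.412 with the block. For all 3 SPRED genes the 95% intervals without the block thus lay between -0.15 and 0.16 on the log2 scale, so larger changes than these fell outside them.

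By Pearson correlation of log2 levels over the 6 samples, among the 11586 genes whose mean normalized count reached 100, those most like SPRY4 were RBFOX3 (r = 0.998), QPCT (0.997) and MVK (0.997). Those most like SPRED3 were WDR97 (0.994), BRSK1 (0.978) and VWA7 (0.975). With 6 samples such values are common, since 116 genes had r above 0.95 with SPRY4 and 13 with SPRED3, and the samples share their replicate numbers, so they are a description only.

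Because the means of SPRY4 and SPRY2 differed in opposite directions, ratios of counts within a sample, which no scaling between samples can alter, were also taken. These pairs were chosen after the values were seen and are given without a test. SPRY4 had 2.77, 2.44 and 2.81 counts per count of SPRY2 in untreated and 3.36, 3.21 and 3.23 in isoproterenol samples. The ratio of SPRY3 to SPRY2 was 0.527, 0.475 and 0.520 in untreated and 0.679, 0.748 and 0.622 in isoproterenol samples. Neither ratio overlapped between the groups, which for SPRY3 and SPRY2 follows from their own values, since neither gene overlapped. The ratios of SPRED3 to SPRED1 and of SPRY1 to SPRY2 did overlap. As shares of the family's per-kilobase level, SPRY2 made up 15.3% ± 0.646 and 13.6% ± 0.499, SPRY4 20.0% ± 1.58 and 21.8% ± 1.06, and SPRY3 2.36% ± 0.126 and 2.82% ± 0.158 (SD, n = 3 each) in untreated and isoproterenol neurons.

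The pathway that these proteins inhibit was read from lists of its ligands and receptors, its cascade, its other inhibitors, the binding partners of Sprouty and SPRED, and the genes that ERK induces. Across the lists 126 of 143 genes were tested. Without the block 0 passed in limma, 16 had an unadjusted p under 0.05 (7.68% of all genes did), and edgeR and DESeq2 called 1 and 3. With the block 17 passed as higher and 1 as lower, 14.3% of the 126 beside 4.88% of all genes. The lists were chosen with earlier results of these data known, so the shares on them are a description and were not tested.

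Most of these were target genes of ERK, many of which are also targets of cAMP and CREB. Among 19 tested of 21 target genes, 10 passed as higher and 1, EPHA4 (log2 fold change -0.17), as lower with the block. That was 57.9%, beside 4.88% of all genes, and the list's median log2 fold change was 0.15. FOS, the immediate-early subunit of AP-1, went from 621.2 ± 75.7 to 1735 ± 564.2 normalized counts (log2 fold change 1.44, limma adjusted p = 0.435 without and 0.0268 with the block). EGR1, an immediate-early zinc finger factor, went from 204.5 ± 76.9 to 454.4 ± 180.5 (1.13, limma adjusted p = 0.698 and 2.31e-19). For FOS, edgeR with the block gave an adjusted p of 3.96e-49, so the size of such p-values differed widely between fits. IER3, a stress-induced ERK target, and KLF10, a TGFβ-inducible repressor, were higher by 0.79 and 0.66 on the log2 scale, with limma adjusted p-values of 2.80e-04 and 5.80e-04 with the block. Leaving out replicate 3 removed the blocked calls of IER3 (0.0665) and KLF10 (0.15).

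Feedback phosphatases and ETS factors, which are often read together with the Sprouty genes, were divided, and those given here were chosen after their values were seen. ETV4, an ETS factor of the FGF response, had a log2 fold change of 0.19 (limma adjusted p = 3.63e-05 with the block), and DUSP4 is described with the inhibitors below. DUSP6, the cytoplasmic ERK phosphatase, had a log2 fold change of -0.073 (limma adjusted p = 0.237 with the block). ETV5 and ETV1, factors of the same ETS family as ETV4, had 0.051 and 0.035 (limma adjusted p = 0.800 and 0.807 with the block). Differences between these genes and the Sprouty genes were not tested.

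Among ligands and receptors, 3 of 29 tested of 44 listed passed as higher with the block and 0 as lower (10.3%, beside 4.88% of all genes). BDNF, the neurotrophin ligand of TrkB, was at 319.9 ± 107.7 normalized counts in untreated and 477.0 ± 179.4 in isoproterenol neurons (SD, n = 3 each), a log2 fold change of 0.56 with a limma adjusted p of 0.820 without and 3.82e-08 with the block. Its unblocked fold change ran from 0.29 to 0.85 as single samples were left out. The lowest values came without isoproterenol replicate 3 or untreated replicate 2. Per replicate number BDNF was higher by 0.53, 0.52 and 0.63 on the log2 scale. It shares 988 exonic bases with the antisense gene BDNF-AS. KIT, the receptor of stem cell factor and a binding partner of SPRED1 and SPRED2, went from 454.9 ± 59.1 to 630.1 ± 83.8 (SD, n = 3 each; log2 fold change 0.47, limma adjusted p = 0.207 and 1.80e-07). The third was VEGFA (0.24, limma adjusted p = 0.035 with the block), which did not pass without replicate 3 (0.606).

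In the cascade itself 2 of 42 genes were higher and 0 lower in limma with the block (4.76%, beside 4.88% of all genes), and the median log2 fold change was 0.029. These were the adaptor SHC1 (0.13, limma adjusted p = 0.0362 with the block) and the ERK-activated kinase RPS6KA2 (0.064, limma adjusted p = 0.0314). SHC1 did not pass without replicate 1 (0.0632) or 2 (0.503). RPS6KA2 did not pass when any replicate number was left out (0.0754, 0.428 and 0.0908), and without untreated replicate 2 its unblocked fold change was -0.031. In edgeR with the block RPS6KA2 did not pass (adjusted p = 0.0846), whereas the kinase gene MAP2K2, at -0.11, passed as lower (adjusted p = 0.0376, and 0.0541 in limma with the block).

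Other inhibitors of the pathway gave 3 of 27 higher and 0 lower with the block (11.1%, beside 4.88% of all genes). Their median log2 fold change was 0.028. DAB2IP, a RAS GTPase-activating protein, went from 4001 ± 243.4 to 4501 ± 189.0 normalized counts (SD, n = 3 each; log2 fold change 0.17, limma adjusted p = 0.347 without and 4.31e-06 with the block). LZTR1, an adaptor for RAS ubiquitination, had 0.26 (limma adjusted p = 0.017 with the block), which did not hold without replicate 2 (0.159) or 3 (0.26), and it shares 3096 exonic bases with a gene on its own strand. DUSP4, the nuclear ERK phosphatase, had 0.085 (limma adjusted p = 0.0261 with the block), which did not hold without replicate 1 (0.173) or 3 (0.359). NF1, the neurofibromin that SPRED proteins recruit, was at 0.034 (limma adjusted p = 0.654 with the block).

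Of the 19 binding partners 0 passed with or without the block, where 4.88% of all genes passed with it. Their median log2 fold change was 0.034. CBL, which Sprouty proteins bind through their phosphorylated tyrosine, had a log2 fold change of 0.072 (limma adjusted p = 0.220 with the block). GRB2 had -0.038 (limma adjusted p = 0.557 with the block).

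**Figure D4:**
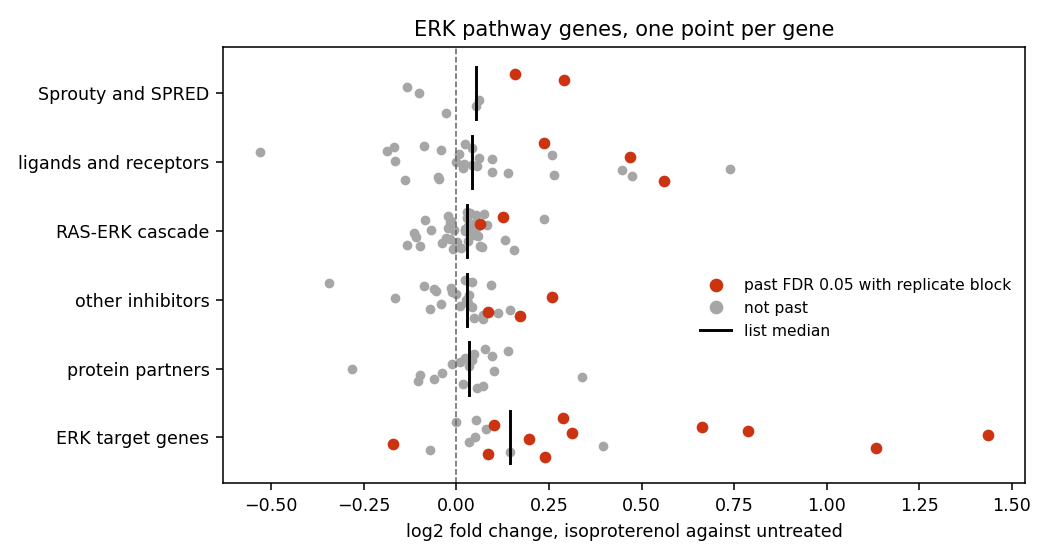
Log2 fold change, isoproterenol over untreated, of each tested gene of the Sprouty and SPRED family and of the 5 pathway lists. Red points passed limma with the replicate block and gray points did not, and ERK target genes held 11 of the 18 that passed on the lists.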

How the data were processed

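The authors counted reads per gene on GRCh38 (their notes name FastQC, Subread, featureCounts and DESeq2, with no version) and deposited a table of normalized counts, a signal in units of reads divided by a size factor per sample. Of the deposited values 100% came back as whole reads (tolerance 0.01). The filter required over 5 reads in 4 or more samples. The main test was limma 3.58.1 (R 4.3.3, trend and robust moderation) on log2(value + 1) over all 18130 genes, two-sided, without a block, and fold changes are on that scale, which understates changes of low genes. The replicate number as a block, edgeR 4.0.16 and DESeq2 1.42.0 on the whole reads, other scalings, filters and pseudocounts, and left-out samples were alternatives. Same-numbered samples correlated at 0.269, 0.493 and 0.388 over 11587 genes (limit 0.1), so the block is printed wherever it changes a call. Their mean was 0.383, while other matchings of the replicates gave means of -0.195 to 0.163. The limit alone therefore does not single out the same-numbered matching. Gene lengths came from GENCODE 44 and start windows from RefSeq, leaving out windows on Y. The named genes are all 7 family members, at most 4 genes per pathway list past the threshold with or without the block, the 3 genes most like SPRY4 and SPRED3, RBM12 and cell type markers. CBL, CCND1, DUSP6, EPHA4, ETV1, ETV4, ETV5, GRB2, MAP2K2 and NF1 fall outside this rule and were chosen after their values were seen, and TMLHE and the antisense genes for their overlap or position. Scripts were tested on simulated data. The members and lists were chosen with earlier results of these data known.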

Additional observations from a re-analysis of the deposited data

How the results depend on the processing

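Of the 7 Sprouty and SPRED genes 0 passed in limma, and 0 passed under TMM or total-read scaling, both other filters, a pseudocount of 5, edgeR or DESeq2 without a block, and with any 1 sample left out. With the replicate block 2 passed in limma and 2 in edgeR. With the block and a replicate number left out, an alternative chosen after seeing the data, the count was 0 to 2, namely 0 without replicate 1, 1 without replicate 2 (SPRY4) and 2 without replicate 3. Over all genes the count of 3 became 10 in edgeR, 21 in DESeq2, 885 in limma with the block and 925 in edgeR with the block, 2 to 67 with 1 sample left out (67 without isoproterenol replicate 2), and 531, 665 and 456 with the block and replicate 1, 2 or 3 left out. For the pathway lists the count of 0 became 1 in edgeR (FOS), 3 in DESeq2 (CCND1, FOS and KIT), 18 in limma and 18 in edgeR with the block (17 shared, with RPS6KA2 called in limma alone and MAP2K2, lower, in edgeR alone), 0 to 3 with 1 sample left out (3 without isoproterenol replicate 2, CCND1, IER3 and KIT), and 14, 13 and 10 with the block and replicate 1, 2 or 3 left out. The cause of these differences was not tested. Directions turned for SPRY1 (0.031 with the block and without replicate 1), SPRED1 (0.0061 in the absence of untreated replicate 1 and 0.011 in that of isoproterenol replicate 3, in a range of -0.067 to 0.011 over left-out samples) and RPS6KA2 (-0.031 without untreated replicate 2, in a range of -0.031 to 0.14). The other members and BDNF, KIT, VEGFA, SHC1, LZTR1, DAB2IP, DUSP4, FOS, EGR1, IER3 and KLF10 kept their sign under the 18 alternatives. The remaining pathway genes given by name were not followed through them. Depth limited SPRY3 most, with a counting error of 4.90%.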
